A study of Mus musculus with 24 samples.

Results

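The comparison of high with normal oxygen covered 8 of the 24 arrays of the series. They were chosen by their titles, which name 4 arrays of GYY4137 in 21% O2 and 4 of GYY4137 in 85% O2, each at 24 h. The cells were labelled as primary mouse alveolar type II cells, kept for 3 days at an air-liquid interface until they formed a monolayer. Both groups then received GYY4137, a compound that releases hydrogen sulfide slowly, at 100 µM for 24 h, so the groups shared the donor and were labelled with different oxygen levels. The other 16 arrays belong to a separate experiment with NaHS, a fast donor. None of the 24 arrays was labelled as cells in 85% O2 without GYY4137. The values therefore describe oxygen in the presence of the donor and not the effect of the donor. The labels do not say whether the 4 replicates of a group came from separate animals or cultures, so the p-values below measure the spread between these samples, which may be technical.

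Alveolar type II cells secrete surfactant, pump fluid from the air space and divide to replace the flat type I cells of the alveolar wall. High oxygen raises the production of superoxide and hydrogen peroxide in cells. The transcription factor NRF2 is held in the cytosol by KEAP1 until oxidants or other electrophiles modify KEAP1, and it then turns on genes of glutathione synthesis, thioredoxin reduction and NADPH supply. The factor p53 accumulates after DNA damage and turns on the cell cycle inhibitor p21, encoded by Cdkn1a, and p21 in turn allows the repression of genes needed for replication and mitosis. Hydrogen sulfide is made in cells by the enzymes Cbs, Cth and Mpst and is oxidised in mitochondria by Sqor and Ethe1.

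Each array had 62976 spots, of which 59305 were not controls and stood for 55681 probes. On the 21% O2 arrays 71.45% to 77.07% of probes were well above background, and on the 85% O2 arrays 69.4% to 77.54%. No spot was saturated. A level below is the log2 of the processed signal minus the 75th percentile of that array, so 0 means a signal equal to that percentile, and a difference of 1 is 2-fold. A gene was tested when its probe was well above background on at least 4 of the 8 arrays, and it is called changed when the limma p-value, adjusted by the Benjamini-Hochberg method over all 34628 genes and unnamed probes tested, was under 0.05. The number of arrays limits the precision of every value. Of 158 called genes named here or in the closing observations, 46 lost their call when some single array was left out, all with an adjusted p of 0.0159 or more. Where a call is said to be lost without any of several arrays, each was left out by itself and the lowest and highest adjusted p are given.

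The 4 arrays of 21% O2 lay on 1 slide and the 4 of 85% O2 on another, so the oxygen level and the slide cannot be told apart. The 5471 called genes were 15.8% of those tested, and 3543 of them (10.2%) were higher and 1928 (5.57%) lower in 85% O2. The counts of every gene list below stand beside these shares. The groups did not overlap for 7980 genes (23.0%). Of the called genes, 1469 were at least 2-fold higher and 759 at least 2-fold lower. The share of higher among called genes depended on the scaling of the arrays: it was 64.8% with the 75th percentile, 51.3% with quantile normalization (2720 higher and 2583 lower) and 36.9% with the median (1962 higher and 3357 lower). The median difference over all genes moved from 0.07 to 0.01 and -0.08 with these 3 scalings. Before scaling, the 75th percentile of the log2 signal was higher on every 85% O2 array (9.684 to 10.089) than on any 21% O2 array (9.43 to 9.663). Leaving out replicate 3 of 85% O2 left 2071 called genes and leaving out replicate 2 of 21% O2 left 2570. The count was 2482 without replicate 4 of 85% O2, 3361 without replicate 3 of 21% O2 and 3501 without replicate 1 of 85% O2.

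In the NaHS experiment every treatment lay on both slides, with replicates 1 and 3 on slide 1 and 2 and 4 on slide 2, so the difference between those slides is also one between sets of replicates and the 2 cannot be told apart. There 16746 of 33239 genes (50.4%) were called between slide 2 and slide 1, more than between the oxygen levels. That fit used 16 arrays and the oxygen fit 8, so the 2 counts are not on equal terms. Slide 1 was also dimmer, with 54.78% to 57.23% of probes well above background against 67.68% to 73.85% on slide 2. The slides of the 2 oxygen levels overlapped in this share. The differences between those slides lay mostly on the higher side among large ones, with 8841 genes at least 2-fold higher on slide 2 and 30 at least 2-fold lower, against 1469 and 759 for oxygen. With the median subtracted the 2 slides gave 4656 and 9629 such genes, and with quantile normalization 4970 and 1409. Over the 32196 genes tested in both, the oxygen difference and the slide difference had a Pearson correlation of -0.136, given as a description across genes. For most gene lists described at length below, the range of the members between those slides is given beside the difference between the oxygen levels. It is not given for the gene families of the closing observations. The gene lists were chosen with earlier results of these data known, so their counts and medians are descriptions.

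**Figure D1:**
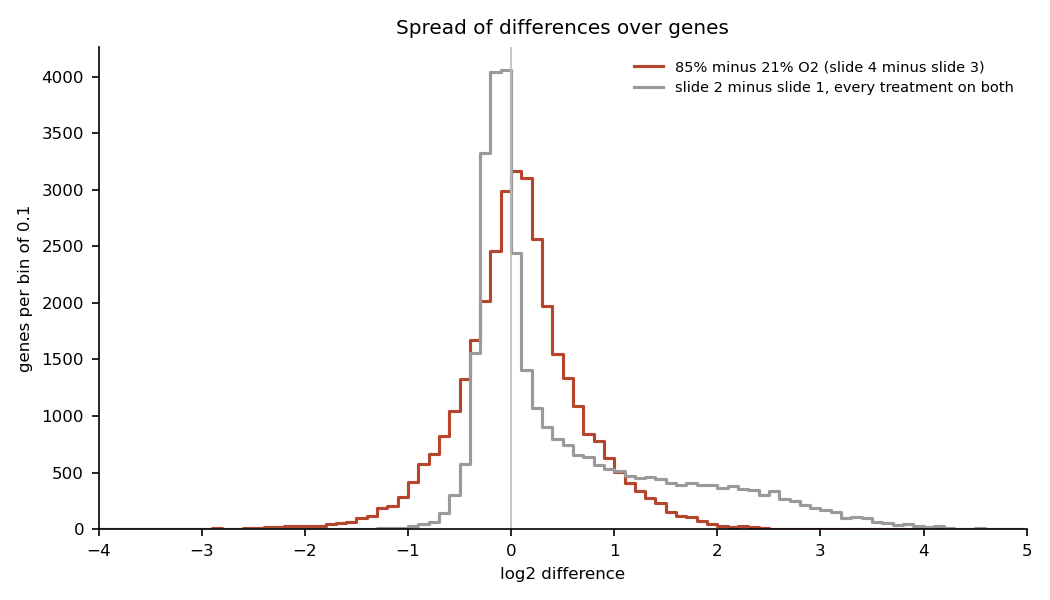
Number of genes (vertical axis, per bin of 0.1 log2) by log2 difference (horizontal axis), for 85% against 21% O2 (red, slide 4 minus slide 3) and for slide 2 against slide 1 of the NaHS experiment with every treatment on both (grey). The oxygen differences had an SD of 0.61 over genes and the slide differences an SD of 1.01, with the long arm of the slide differences on the higher side.

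The label of alveolar type II cells was set against marker genes. Transcripts of the type II list were present: 24 of its 26 genes were tested, and Sftpb, Sftpc and Sftpd, which encode surfactant proteins, were well above background on all 8 arrays. The type II markers Slc34a2 and Cxcl15 were too dim to be tested. Sftpc, made in the lung by type II cells, read 1.02, 0.11, 3.57 and 3.73 in replicates 1 to 4 of 21% O2 and 0.07, 1.35, 3.40 and 2.38 in replicates 1 to 4 of 85% O2. It was high in replicates 3 and 4 at both oxygen levels, the groups overlapped, and their difference was -0.31 ± 0.98 (SE, adjusted p = 0.846). Ager, a type I cell gene, gave -1.95, -2.43, 1.91 and 1.16 in 21% O2 and -2.98, -1.95, 1.29 and 0.81 in 85% O2, with the same split by replicate number. Aqp5, a water channel of type I cells, split the same way, from 1.81 to 3.64 in 21% O2 and from 1.96 to 3.44 in 85% O2.

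Markers of other lung cells were present too, some at higher levels. The mean level of the 24 type II genes ran from 0.46 to 1.55 in 21% O2 and from 0.37 to 1.30 in 85% O2. That of the 9 smooth muscle and pericyte markers was higher on every array, from 3.25 to 3.69 and from 3.03 to 3.37. The mean levels of macrophage, endothelial and ciliated markers were below those of the type II genes. The differences below therefore cannot be assigned to type II cells. Acta2, the actin of smooth muscle and myofibroblasts, ranged from 8.55 to 8.88 in 21% O2 and from 8.24 to 8.74 in 85% O2, and Col1a1, a fibrillar collagen chain, from 7.50 to 7.80 and from 6.91 to 7.54. Marco, a scavenger receptor of alveolar macrophages, read -1.48, -1.0, 0.23 and 0.85 in 21% O2 and -0.91, -1.32, 2.11 and 1.92 in 85% O2. The mean level of the 12 tested macrophage markers ran from -2.86 to -1.70 in 21% O2 and from -2.95 to -0.71 in 85% O2, and the replicates 3 and 4 were the higher ones at both oxygen levels. Over all genes 15.8% were called. None of the 12 macrophage, 4 mesothelial, 5 basal cell or 2 erythroid markers was called, while 1 of 10 fibroblast, 2 of 9 smooth muscle and pericyte, 2 of 5 ciliated, 1 of 7 endothelial, 1 of 7 club cell, 1 of 9 lymphocyte and 1 of 7 neutrophil markers was. The called ones included Thy1, a fibroblast surface protein, at -1.05 ± 0.16, Des, the muscle filament desmin, at -1.29, Notch3, a receptor of pericytes, at 1.36 and Foxj1, the ciliated cell factor, at 1.46 (call lost without any of 3 arrays, adjusted p of 0.0592 to 0.0705). The part of cell makeup in the results below was not tested, and in these bulk samples fewer cells of a type and less RNA per cell cannot be told apart.

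**Figure D2:**
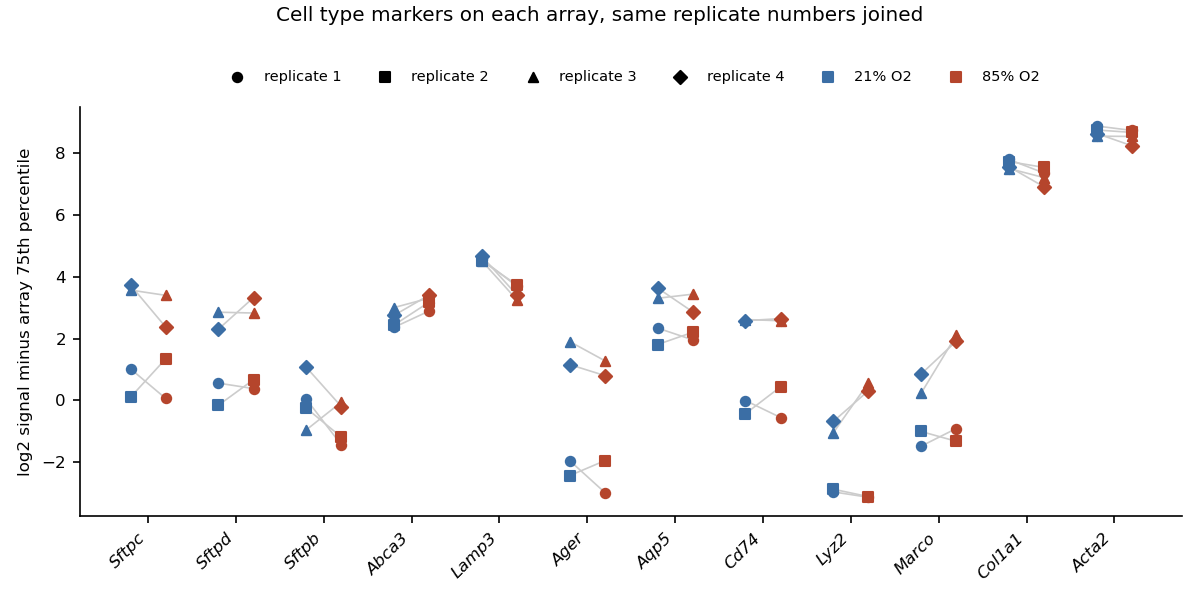
Level (log2 signal minus the 75th percentile of the array, vertical axis) of 12 cell type markers on each of the 8 arrays, blue for 21% O2 and red for 85% O2, with a symbol for each replicate number and a line joining the same number. Sftpc, Sftpd, Ager and Marco are split by replicate number, with replicates 3 and 4 above 1 and 2 at both oxygen levels, while Lamp3 is split by oxygen.

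Of the type II list, 2 of 24 genes were called (8.3%, beside 15.8% of all genes) and both were lower, beside 5.57% of all genes called lower. Lamp3, a protein of the lamellar bodies that store surfactant, read 4.57, 4.51, 4.52 and 4.66 in 21% O2 and 3.69, 3.74, 3.25 and 3.41 in 85% O2. All 85% O2 arrays lay below all 21% O2 arrays, with a difference of -1.04 ± 0.14 (adjusted p = 0.00432), or 2.06-fold lower. Il33, a cytokine released from injured epithelium, fell by 1.20 ± 0.25 (adjusted p = 0.0191, or 0.0547 without replicate 4 of 85% O2). Abca3, the lipid transporter of lamellar bodies, was 0.56 ± 0.18 higher without passing the threshold (adjusted p = 0.0703), and passed it with the replicate number as a block (0.0435). Sftpb differed by -0.70 ± 0.47 and Sftpd by 0.41 ± 0.88, both within the spread of their replicates. Of the type I list none of 19 genes was called, and the median difference was 0.05 for type II and -0.03 for type I genes, beside 0.07 over all genes. Such small medians change sign with the scaling: with the array median subtracted they were -0.09 and -0.17, and 2 type I genes were then called lower. Between the NaHS slides type II genes ranged from -0.30 to 0.84 and type I genes from -0.70 to 1.47.

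The antioxidant genes under NRF2 were higher in 85% O2. Of 35 tested members 19 were called higher and none lower, with a median difference of 0.79 beside 0.07 over all genes, and the same numbers were called with the replicate block. Between the slides of the NaHS experiment the same 35 genes ranged from -0.43 to 1.11 with a median of -0.09. The mean level of the list ran from 2.68 to 2.87 on the 21% O2 arrays and from 3.39 to 3.92 on the 85% O2 arrays, so the groups did not overlap. With each array left out in turn, 14 to 19 members were called higher.

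Nqo1 had the largest rise on the list. It encodes a quinone reductase, and its probe lies at chr8:109912440-109912499 of mm9 on the minus strand. Nqo1 read -0.76, -0.76, -0.77 and -1.39 in 21% O2 and 2.76, 2.63, 2.71 and 1.89 in 85% O2. The groups lay far apart, with replicate 4 the lowest in both, and the difference was 3.42 ± 0.24 (adjusted p = 0.00145). Hmox1, the haem oxygenase that NRF2 also targets, read 1.39, 4.42, 0.76 and 4.31 in 21% O2 and 4.15, 3.45, 2.05 and 1.82 in 85% O2. Its replicates spread over more than the groups differed (0.15 ± 0.94, adjusted p = 0.925).

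The glutathione genes of the list had the most calls, 10 of 12 with a median of 1.40. Gclc, the catalytic subunit of the enzyme that starts glutathione synthesis, read 2.21, 2.36, 2.10 and 2.27 in 21% O2 and 3.68, 3.64, 3.69 and 3.57 in 85% O2, a rise of 1.41 ± 0.11 (adjusted p = 0.00145). Its partner subunit Gclm rose by 1.52 ± 0.26 (adjusted p = 0.01), from 0.16 to 0.95 in 21% O2 against 1.29 to 2.33 in 85% O2. Both subunits thus rose, by 2.65-fold and 2.87-fold. Gpx2, a glutathione peroxidase of epithelia, rose by 2.08 ± 0.26, and the glutathione transferase Gsta2 by 1.40 ± 0.19. Gsta3, another transferase, read 0.48, 1.70, 3.51 and 1.56 in 21% O2 and 4.85, 5.05, 5.23 and 3.91 in 85% O2. It rose by 2.95 ± 0.59 (adjusted p = 0.0165), but it also differed by 1.11 between the slides of the NaHS experiment, and without replicate 3 of 85% O2 its adjusted p was 0.0538. Abcc4, an exporter of conjugates, rose by 1.46 ± 0.20.

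In the thioredoxin branch 3 of 5 genes rose. Srxn1, sulfiredoxin, which repairs overoxidised peroxiredoxins, read 3.80, 4.04, 4.04 and 3.80 in 21% O2 and 6.15, 5.77, 5.95 and 5.09 in 85% O2. It rose by 1.82 ± 0.22 (adjusted p = 0.00356), or 3.54-fold. Txnrd1, thioredoxin reductase, rose by 1.04 ± 0.16 and the peroxiredoxin Prdx1 by 0.79 ± 0.13. Osgin1, a regulator of growth induced by oxidants, rose by 1.54 ± 0.15 and the aldose reductase relative Akr1b8 by 0.92 ± 0.12. None of the 4 regulators on the list (Keap1, Mafg, Nfe2l2, which encodes NRF2, and Sqstm1) was called, with a median of 0.24.

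NADPH, the reductant that glutathione and thioredoxin reductases use, comes in part from the pentose phosphate pathway. Of 12 genes for it 3 were called higher and none lower, but with the array median subtracted 3 were called higher and 3 lower, and the median difference moved from -0.08 to -0.23. The range between the NaHS slides was -0.36 to 0.03. Pgd, 6-phosphogluconate dehydrogenase, read 4.18, 4.10, 4.32 and 4.05 in 21% O2 and 5.45, 5.29, 5.74 and 5.31 in 85% O2, a rise of 1.28 ± 0.14 (adjusted p = 0.00235). G6pdx, which commits glucose to the pathway, rose by 0.89 ± 0.12 and Taldo1, transaldolase, by 0.59 ± 0.14 (call lost without any of 5 arrays, adjusted p of 0.0544 to 0.0828). The 3 called genes were pathway enzymes, while Idh1, Idh2 and Nnt, which make NADPH elsewhere, differed by -0.30, -0.58 and -0.35 without passing the threshold. Idh2 passed it with the replicate block (adjusted p = 0.042).

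The enzymes that remove superoxide and peroxide directly did not move together. Of 20 tested, 3 were called higher (Gpx2, Prdx1 and Gpx1) and 2 lower (Gpx7 and Prdx4), with a median of -0.07 that changed sign with the scaling, from -0.21 with the median subtracted to 0.19 without scaling. The 20 genes lay between -0.34 and 0.25 across the NaHS slides. Gpx7 and Prdx4, peroxidases of the endoplasmic reticulum, fell by 0.81 ± 0.17 and 0.46 ± 0.12, with calls lost without any of 2 arrays (0.0522 and 0.0583) and of 6 arrays (0.0653 to 0.0951). Gpx1, the main cytosolic glutathione peroxidase, rose by 0.43 ± 0.12 (adjusted p = 0.0479), which did not pass with the replicate block (0.0819) or without any of the 8 arrays (0.0616 to 0.105). The superoxide dismutases Sod1, Sod2 and Sod3 differed by 0.12 ± 0.13, -0.29 ± 0.14 and -0.60 ± 0.29, and catalase (Cat) by 0.37 ± 0.15, none past the threshold. Of 14 subunits of NADPH oxidases and xanthine oxidase, enzymes that make superoxide or peroxide, none was called, and 4 were called higher without scaling.

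The promoters of these genes were searched for the antioxidant response element in the form TGACNNNGC, on both strands, from 250 bases before to 50 after the start of each gene in RefSeq's GRCm38.p6 table. Of the 28 tested members with a promoter there, 9 held it (32.1%), against 14% of all 27025 genes. Among the 15 called higher 6 held it (40.0%), and among the 13 not called 3 did (23.1%). It was not particular to NRF2 genes. Of lists described below, it stood in 26.3% of unfolded protein response, 22.2% of cholesterol and 20.7% of replication genes. In the p53 and mitosis lists it stood in 18.2% and 10.3%. The 100 bases around the element in Abcc4 and Txnrd1, the called NRF2 members with the smallest p that hold it among the genes the naming rule admits, are shown 5′ to 3′ along the gene with the match in capitals. A match is a description of the letters and no evidence of binding. In both cases the match reads as the reverse complement of the searched form.
Abcc4, chr14:118706211-118706310, minus strand: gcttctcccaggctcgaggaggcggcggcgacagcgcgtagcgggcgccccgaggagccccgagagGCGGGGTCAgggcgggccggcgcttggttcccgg
Txnrd1, chr10:82859048-82859147, plus strand: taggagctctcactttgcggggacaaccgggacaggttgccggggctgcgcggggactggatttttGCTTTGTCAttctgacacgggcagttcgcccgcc

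The enzymes of hydrogen sulfide itself had few calls. Of 12 genes for its production, its oxidation and the supply of its substrates 1 was called (8.3%, beside 15.8% of all genes). None was called with the array median subtracted and 3 without scaling. Across the NaHS slides the 12 genes ranged from -0.60 to 0.62. Cbs, cystathionine beta-synthase, read 0.49, -0.02, -0.85 and 0.02 in 21% O2 and 0.63, 1.05, 1.31 and 2.01 in 85% O2. All 85% O2 arrays lay above the 21% O2 arrays, though replicate 1 of the 2 groups lay close (0.49 and 0.63), and the rise was 1.34 ± 0.35 (adjusted p = 0.0375). That call was lost with the replicate block (adjusted p = 0.0626) and without any of replicates 2, 3 and 4 of 21% O2 or 3 and 4 of 85% O2 (0.0704 to 0.0938). Cth, cystathionine gamma-lyase, differed by -0.94 ± 0.62 and Mpst by -0.33 ± 0.22, within overlapping groups. Sqor, the quinone oxidoreductase that takes up sulfide in mitochondria, was 0.43 ± 0.14 higher without overlap and did not pass the threshold (adjusted p = 0.0635), and Ethe1, the next enzyme, differed by 0.24 ± 0.12.

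**Figure D3:**
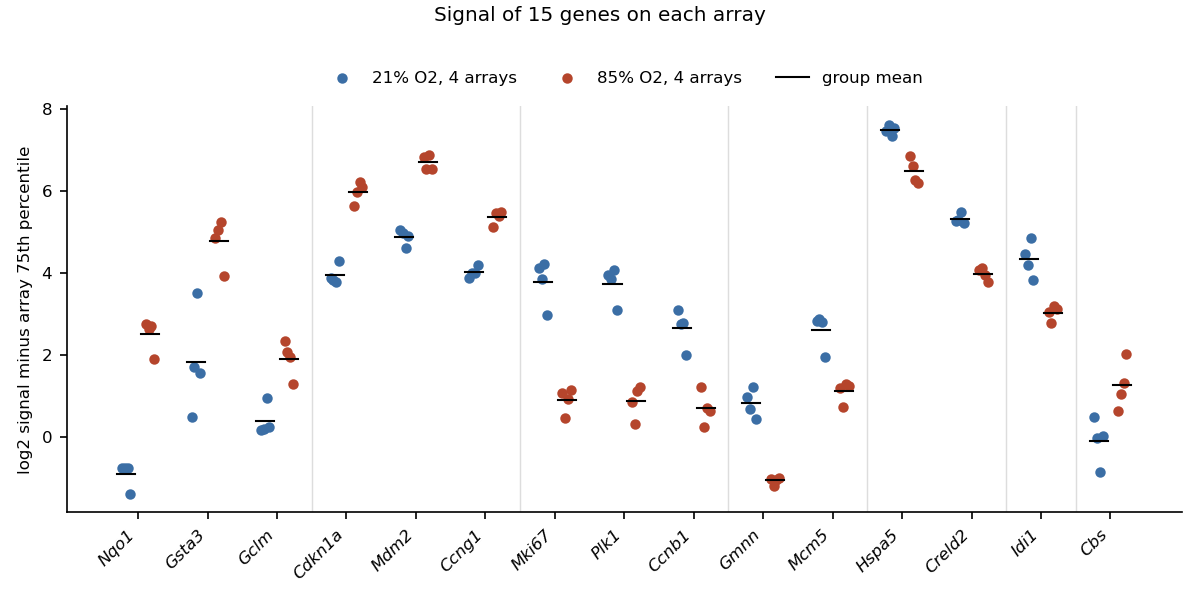
Level (log2 signal minus the 75th percentile of the array, vertical axis) of 15 genes on each array, blue for the 4 arrays of 21% O2 and red for the 4 of 85% O2, with a black bar at each group mean. From left to right stand 3 NRF2 targets and 3 p53 targets, which are higher in 85% O2. Then come 3 mitosis genes, 2 replication genes, 2 endoplasmic reticulum genes and Idi1, which are lower. Last stands Cbs, which is higher in 85% O2, with its lowest 85% O2 value close to its highest 21% O2 value.

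Targets of p53 were also higher. Of 30 tested members 19 were called higher and 1 lower (Polh, a repair polymerase named here after its value was seen, -0.58 ± 0.13, its call lost without any of 5 arrays, adjusted p 0.0574 to 0.0643), with a median of 0.81, and the members ranged from -0.40 to 0.51 between the slides of the NaHS experiment. The mean level of the list ran from 1.66 to 1.77 in 21% O2 and from 2.49 to 2.65 in 85% O2. The replicate block gave 18 higher and 1 lower. Without replicate 3 of 85% O2 the count was 12.

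Cdkn1a, the gene of p21, which holds cyclin-dependent kinases inactive, has its probe at chr17:29237377-29237436 of mm9 on the plus strand. Cdkn1a read 3.86, 3.83, 3.78 and 4.28 in 21% O2 and 5.62, 5.97, 6.21 and 6.10 in 85% O2. The groups did not overlap and the rise was 2.03 ± 0.17 (adjusted p = 0.00145), or 4.09-fold, with all 3 of its probes called higher. Mdm2, the ubiquitin ligase that degrades p53, read 5.04, 4.96, 4.60 and 4.89 in 21% O2 and 6.83, 6.53, 6.87 and 6.52 in 85% O2. Mdm2 rose by 1.81 ± 0.15 (adjusted p = 0.00145). The transcript of p53 itself, Trp53, differed by 0.21 ± 0.22 (adjusted p = 0.539). In this list 10 of 12 genes of the apoptosis role rose, with a median of 1.15, and 6 of 9 of the arrest role.

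Among the apoptosis genes, Perp, a desmosomal protein that p53 induces, rose by 1.75 ± 0.21 and Trp53inp1 by 1.99 ± 0.19. Tnfrsf10b, the death receptor for TRAIL, rose by 1.14 ± 0.10, Phlda3, an inhibitor of AKT, by 1.22 ± 0.11 and Zmat3, an RNA-binding protein, by 1.16 ± 0.10. Ccng1, cyclin G1, read 3.87, 4.0, 3.99 and 4.19 in 21% O2 and 5.12, 5.44, 5.37 and 5.48 in 85% O2, a rise of 1.34 ± 0.13. Gdf15, a secreted stress factor, rose by 1.03 ± 0.23, with its call lost without any of 4 arrays (adjusted p of 0.0534 to 0.0704). All of these had groups that did not overlap.

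The other inhibitors of cyclin-dependent kinases went both ways. Of 7 genes, Cdkn1a and Cdkn2a were called higher and Cdkn2c and Cdkn2d lower. The 7 genes ranged from -0.32 to 0.15 between the NaHS slides. Cdkn2c, p18, fell by 1.38 ± 0.21 and Cdkn2d, p19 of the INK4 family, by 0.99 ± 0.14. Cdkn2a, the p16 and ARF locus, rose by 0.54 ± 0.14 (adjusted p = 0.0361), which was lost with the replicate block (0.0623) and without any of 6 arrays (0.0524 to 0.101). Cdkn1b, p27, was 0.56 ± 0.19 lower and passed only with the block (0.0483 against 0.0743), while Cdkn2b and Cdkn1c differed by 0.26 ± 0.15 and 0.40 ± 0.38.

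Genes of mitosis were lower in 85% O2 as a group. Of 35 tested members 33 were called lower and none higher, with a median of -2.08 and no member above 0. The members ranged from -0.41 to 0.15 between the slides of the NaHS experiment. The mean level of the list ran from 1.14 to 1.96 in 21% O2 and from -0.87 to -0.19 in 85% O2, with replicate 4 the lowest of the 21% O2 arrays. Leaving out any 1 array gave 33 or 34 calls, and the replicate block gave 33. All 12 cyclins and kinases and all 15 kinetochore and spindle genes of the list were called, with medians of -2.16 and -2.18.

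Mki67, the Ki-67 antigen of dividing cells, has its probe at chr7:142881591-142881650 of mm9 on the minus strand. Mki67 read 4.11, 3.84, 4.20 and 2.96 in 21% O2 and 1.07, 0.45, 0.92 and 1.15 in 85% O2. It fell by 2.88 ± 0.29 (adjusted p = 0.00192), which is 7.38-fold. Plk1, a kinase that drives entry into mitosis, read 3.94, 3.85, 4.06 and 3.08 against 0.84, 0.32, 1.12 and 1.21 and fell by 2.86 ± 0.27. In both genes replicate 4 of 21% O2 was the lowest of its group and still lay above every 85% O2 array. Ccna2, cyclin A2, fell by 2.81 ± 0.25, Cdk1, the mitotic kinase, by 2.37 ± 0.21, Ccnb2, cyclin B2, by 2.28 ± 0.21 and Ccnb1, cyclin B1, by 1.96 ± 0.28. The kinetochore genes Ndc80 and Nuf2 fell by 2.95 ± 0.23 and 2.54 ± 0.24, and the spindle motor Kif11 by 2.83 ± 0.26.

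Genes of this group are known to be repressed through a short promoter sequence, the cell cycle homology region, which was searched as TTTGAA on both strands in the same windows. It was present in 18 of 29 members with a promoter in the table (62.1%), against 20.2% of all genes. The CCAAT box stood in 69.0% of them against 41.1%. It was more frequent in the unfolded protein response (89.5%) and cholesterol (88.9%) lists, so it was not particular to mitosis genes. TTTGAA stood in 8 of 28 NRF2 genes (28.6%), among them 7 of the 15 called higher. It stood in 18.2% of the p53 list, 5.56% of the cholesterol list and none of the unfolded protein response list. The stretches of Cdk1, Ccnb2 and Kif11, the named members with the smallest p that hold TTTGAA, show it in capitals, in Kif11 as its reverse complement.
Cdk1, chr10:69352897-69352996, minus strand: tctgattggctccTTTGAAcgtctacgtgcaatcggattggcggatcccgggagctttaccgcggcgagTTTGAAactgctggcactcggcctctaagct
Ccnb2, chr9:70421530-70421629, minus strand: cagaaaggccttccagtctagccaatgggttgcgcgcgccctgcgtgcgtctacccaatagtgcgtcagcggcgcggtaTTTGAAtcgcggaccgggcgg
Kif11, chr19:37376294-37376393, plus strand: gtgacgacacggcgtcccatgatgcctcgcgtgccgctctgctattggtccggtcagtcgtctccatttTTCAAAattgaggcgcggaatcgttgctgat
The centre of the capitals nearest the start lies 12 bases before it in Cdk1, 16 before it in Kif11 and 7 after it in Ccnb2. Cdk1 holds it again further upstream.

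Genes of DNA replication were lower with a smaller median. Of 35 tested members 29 were called lower and none higher, with a median of -1.02, and no member was above 0. The same genes ranged from -0.44 to 0.35 between the NaHS slides. By role, 13 of 15 licensing genes, 8 of 11 polymerase genes, 5 of 6 genes of nucleotide supply and 3 of 3 cyclins fell. Mcm5, a subunit of the replicative helicase, read 2.82, 2.88, 2.80 and 1.95 in 21% O2 and 1.19, 0.74, 1.30 and 1.25 in 85% O2. Mcm5 fell by 1.49 ± 0.24 (adjusted p = 0.00753), with replicate 4 again the lowest of 21% O2. Gmnn, geminin, which blocks repeated licensing, fell by 1.89 ± 0.17, Mcm10 by 1.81 ± 0.23 and Pola1, the catalytic subunit of DNA polymerase alpha, by 1.61 ± 0.19. Pcna, the sliding clamp, fell by 1.02 ± 0.11, from 4.53 to 4.74 in 21% O2 against 3.54 to 3.74 in 85% O2.

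The E2F site, which recruits the factors that turn on S-phase genes, was searched as TTTGGCGC or TTTCCCGC. Of 29 replication genes with a promoter in the table, 10 held either form (34.5%), against 1.80% of all genes, and 0 of 29 mitosis genes did. Conversely TTTGAA stood in 4 of the 29 replication genes (13.8%). Among the 24 replication genes called lower 8 held an E2F form (33.3%), and among the 5 not called 2 did (40.0%). The E2F match is in capitals in Pola1 and Mcm5, the named members with the smallest p that hold it, in both as the reverse complement of the first form.
Pola1, chrX:93632261-93632360, minus strand: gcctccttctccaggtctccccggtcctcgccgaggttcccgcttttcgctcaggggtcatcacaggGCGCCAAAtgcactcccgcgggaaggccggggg
Mcm5, chr8:75109293-75109392, plus strand: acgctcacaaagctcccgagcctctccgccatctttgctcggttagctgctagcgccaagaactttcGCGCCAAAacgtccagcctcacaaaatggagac

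Of 32 tested DNA repair genes 19 were called lower and 1 higher, with a median of -0.69. Between the NaHS slides they ranged from -0.30 to 2.28, with a median of -0.11. In homologous recombination 10 of 11 fell, with a median of -1.30, and 4 of 5 Fanconi genes, with a median of -1.45. By contrast 2 of 8 genes of end joining and checkpoint signalling fell, with a median of -0.28, and base excision had 3 lower and 1 higher of 8. The difference between these roles was not tested. Exo1, the exonuclease that resects DNA ends, read 1.72, 1.51, 1.23 and 0.63 in 21% O2 and -0.70, -1.64, -1.04 and -1.16 in 85% O2, a fall of 2.41 ± 0.27. Rad54l, a motor protein of homologous recombination, fell by 1.91 ± 0.25, and Fanci and Fancd2, the pair at the centre of crosslink repair, by 1.51 ± 0.24 and 1.45 ± 0.20. The gene called higher was Mgmt, which removes alkyl groups from guanine, at 1.22 ± 0.20 (adjusted p = 0.00878). The number called lower was 11 without replicate 3 of 85% O2 and 12 without replicate 2 of 21% O2.

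**Figure D4:**
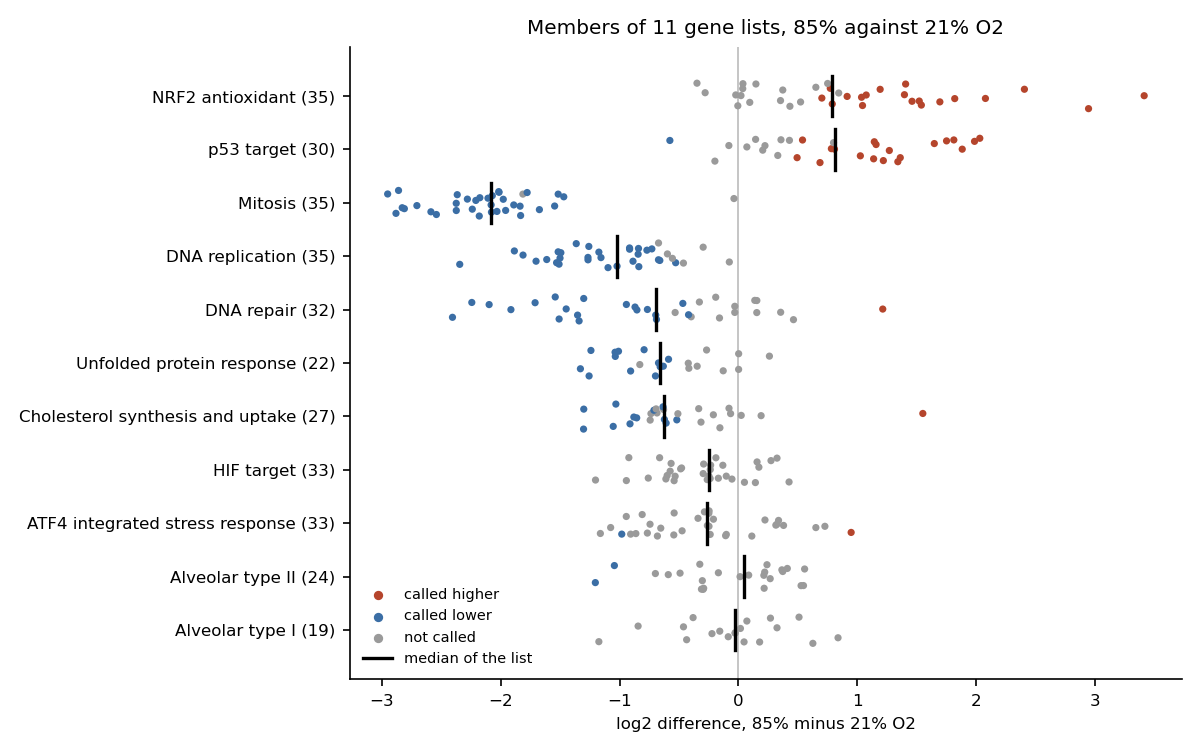
Log2 difference of 85% against 21% O2 (horizontal axis) for each tested member of 11 gene lists (rows, number tested in brackets), red for called higher, blue for called lower and grey for not called, with a black bar at the median of the list. The NRF2 and p53 lists lie to the right of 0, the mitosis, replication, repair, unfolded protein and cholesterol lists to the left, and the alveolar lists around 0.

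Chaperones of the endoplasmic reticulum were lower in 85% O2. Of 22 tested genes of the unfolded protein response 13 were called lower and none higher, with a median of -0.66, and 10 of them belonged to the 14 chaperones. The list ranged from -0.38 to 0.61 between the NaHS slides. Its mean level ran from 3.90 to 4.02 on the 21% O2 arrays and from 3.12 to 3.53 on the 85% O2 arrays. The count fell to 7 without replicate 3 of 85% O2 and was 12 with the replicate block.

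Creld2, a resident protein of the reticulum that is induced by unfolded proteins, has its probe at chr15:88656997-88657056 of mm9 on the plus strand. Creld2 read 5.27, 5.28, 5.47 and 5.21 in 21% O2 and 4.07, 4.11, 3.94 and 3.78 in 85% O2, a fall of 1.33 ± 0.12 (adjusted p = 0.00145) or 2.51-fold. Hspa5, BiP, the main chaperone of the reticulum, read 7.45, 7.60, 7.34 and 7.52 against 6.83, 6.60, 6.26 and 6.18. The groups of Hspa5 did not overlap, and it fell by 1.01 ± 0.17 (adjusted p = 0.00864). Dnajc3, a co-chaperone that also restrains the kinase PERK, fell by 1.26 ± 0.17, Sdf2l1 by 1.24 ± 0.15, Manf by 1.04 ± 0.11 and Hsp90b1, GRP94, by 0.91 ± 0.14.

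The endoplasmic reticulum stress element, to which ATF6 binds with NF-Y, was searched as CCAAT and CCACG with any 9 bases between them, on both strands, and its first letters are also a CCAAT box. It was found in 9 of the 19 genes of this list with a promoter in the table (47.4%) and in 37 of all 27025 genes (0.137%). Among the 12 of these 19 that fell 5 held it, and among the 7 not called 4 did, so members with and without a call both carried it. Creld2, Dnajc3 and Hsp90b1 are shown with the element in capitals, in Creld2 and Hsp90b1 as its reverse complement.
Creld2, chr15:88819464-88819563, plus strand: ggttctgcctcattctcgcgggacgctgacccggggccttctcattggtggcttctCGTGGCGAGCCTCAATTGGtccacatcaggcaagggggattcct
Dnajc3, chr14:118937771-118937870, plus strand: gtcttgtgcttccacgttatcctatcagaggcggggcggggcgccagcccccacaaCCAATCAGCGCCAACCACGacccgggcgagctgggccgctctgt
Hsp90b1, chr10:86705508-86705607, minus strand: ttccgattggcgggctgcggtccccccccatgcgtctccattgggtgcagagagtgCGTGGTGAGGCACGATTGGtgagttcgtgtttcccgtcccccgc

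The genes under ATF4, the factor of the integrated stress response, had few calls, 6.1% beside 15.8% of all genes. Of 33 tested 1 was called higher (Ddit4, an inhibitor of mTOR signalling, 0.95 ± 0.17) and 1 lower (Pycr1, an enzyme of proline synthesis, -0.98 ± 0.25), with a median of -0.26 that lay between -0.40 and 0.00 with the other scalings. The number called lower was 6 with the array median subtracted and 6 with normexp and quantile normalization, and the call of Pycr1 ended without any of 4 arrays (adjusted p of 0.0698 to 0.0918). Between the NaHS slides the list ranged from -0.93 to 0.18. The mean level of that list was 3.01 in replicate 3 of 21% O2 and 3.89 to 4.19 in the other three, a spread wider than the difference between the groups. Of 19 heat shock genes Hsph1 was called lower (-0.77 ± 0.19, in overlapping groups) and Hspa4l higher (0.38 ± 0.11, not with the replicate block, adjusted p = 0.0786). Those calls ended without any of 6 arrays (0.0555 to 0.0951) and of 7 arrays (0.063 to 0.126). Of 31 proteasome subunits 1 was called, Psmd8, at 0.48 ± 0.12 and not with the block (0.0674) or without any of 6 arrays (0.0635 to 0.0984), while 8 were called higher without scaling.

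Enzymes of cholesterol synthesis were lower. Of 27 tested genes 12 were called lower and 1 higher, with a median of -0.63, and 15 were called lower with the replicate block. Between the NaHS slides the list ranged from -0.88 to 0.56, with a median of -0.30. Idi1, an isomerase early in the pathway, has its probe at chr13:8891524-8891583 of mm9 on the plus strand. Idi1 read 4.44, 4.20, 4.85 and 3.83 in 21% O2 and 3.05, 2.77, 3.18 and 3.11 in 85% O2, without overlap, and fell by 1.30 ± 0.22 (adjusted p = 0.00925). Sqle, squalene epoxidase, fell by 0.88 ± 0.14, Fdps, which makes farnesyl diphosphate, by 0.86 ± 0.18 and Cyp51, lanosterol demethylase, by 0.91 ± 0.19, and the call of Fdps ended without replicate 3 or 4 of 85% O2 (adjusted p = 0.0578 and 0.0528). The member called higher was Abcg1, a transporter that exports cholesterol from cells, at 1.55 ± 0.26, which differed by -0.88 between the NaHS slides. The number called lower depended on single arrays: it was 4 without replicate 3 or replicate 4 of 85% O2, 5 without replicate 2 or replicate 3 of 21% O2 and 7 without replicate 1 of 85% O2.

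Of 15 genes of fatty acid synthesis 3 were called lower, against 6 with the array median subtracted and 1 without scaling. Elovl6, an elongase, read 3.12, 2.82, 3.17 and 1.65 in 21% O2 and 1.58, 1.27, 1.31 and 1.06 in 85% O2, a fall of 1.38 ± 0.33 (adjusted p = 0.0273). Its lowest 21% O2 value, in replicate 4, lay close to the highest 85% O2 value, and its call ended without replicate 2 or 3 of 21% O2 or replicate 3 or 4 of 85% O2 (adjusted p of 0.0649 to 0.0752). Srebf1, the factor that controls the pathway, and the desaturase Fads1 fell by 0.55 ± 0.15 and 0.54 ± 0.13, and neither passed with the replicate block (adjusted p = 0.0808 and 0.0585) or without any of 6 arrays (0.0612 to 0.107 and 0.0555 to 0.0828).

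Targets of the hypoxia-inducible factor, which is degraded when oxygen is plentiful, had calls that depended on the scaling. None of 33 passed the threshold with the 75th percentile subtracted, and 3 were called lower with the array median subtracted and 3 with normexp and quantile normalization. The median was -0.25 with the 75th percentile, -0.40 with the array median and 0.01 without scaling, and 7 members had a difference above 0 with the 75th percentile. The list ranged from -0.70 to 0.47 between the NaHS slides. Slc16a3, which exports lactate, P4ha1, a collagen hydroxylase, and Pfkp, a phosphofructokinase, differed by -0.94 ± 0.29, -0.92 ± 0.28 and -0.61 ± 0.19, with adjusted p of 0.0584, 0.0587 and 0.0611. Hif1a itself differed by 0.16 ± 0.21. Vegfa, the vascular growth factor, read 3.97 in replicate 3 of 21% O2 and between 5.34 and 5.72 on the other 7 arrays, a difference of 0.33 ± 0.36.

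The clock list held 4 genes called higher and 1 lower of 19, or 8 and none without scaling, and ranged from -0.30 to 2.58 between the NaHS slides. Nr1d1, the repressor REV-ERB alpha, read -1.29, -1.03, -1.73 and -1.59 in 21% O2 and 0.31, 0.46, 1.12 and 1.40 in 85% O2, without overlap, a rise of 2.23 ± 0.27 (adjusted p = 0.00351) or 4.7-fold. Per3, a period gene, rose by 1.26 ± 0.15, and Dbp and Tef, related activators driven by the clock, by 1.14 ± 0.22 and 0.83 ± 0.13. Nfil3, a repressor that binds the sites of Dbp and Tef, fell by 0.66 ± 0.17 and lost its call with the replicate block (adjusted p = 0.0634) and without any of 7 arrays (0.051 to 0.0888). The labels give no hour of harvest.

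Of 19 genes of iron, zinc and copper handling 3 were called higher, or 6 without scaling. Slc40a1, ferroportin, the iron exporter, rose by 1.23 ± 0.24, Ireb2, a sensor of cellular iron, by 0.91 ± 0.14 and Tfrc, the transferrin receptor, by 1.16 ± 0.30. The call of Tfrc was lost with the block (adjusted p = 0.0712) and without any of 6 arrays (0.0543 to 0.0938). The metallothioneins Mt1 and Mt2, which bind zinc, differed by 0.35 ± 0.23 and 0.22 ± 0.30. Of 38 genes of mitochondrial respiration 3 were called higher, against 1 with the array median subtracted and 7 without scaling. Ppargc1a, a coactivator of mitochondrial genes, at 1.20 ± 0.28, lost its call without replicate 2 of 21% O2 or replicate 1, 3 or 4 of 85% O2 (adjusted p of 0.0541 to 0.0772). Nrf1, a factor for mitochondrial genes, lost its call with the block (0.0622) and without any of 7 arrays (0.0519 to 0.0881).

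Among epithelial genes the calls were scattered. Of 18 genes of transitional or injured alveolar epithelium 3 were called higher and 1 lower. Cldn4, a claudin of injured epithelium, read 3.82, 3.01, 3.48 and 3.78 in 21% O2 and 4.26, 4.56, 5.61 and 5.93 in 85% O2, a rise of 1.57 ± 0.39 (adjusted p = 0.0312). Its call ended without any of 5 arrays, replicates 2 to 4 of 21% O2 and 3 and 4 of 85% O2 (0.0547 to 0.0868). Ereg, a ligand of the EGF receptor, rose by 1.0 ± 0.23 and Mdk, the growth factor midkine, fell by 0.98 ± 0.14, while Krt8, the keratin that marks the transitional state, differed by 0.19 ± 0.14 (adjusted p = 0.343). Of 16 tight junction genes 15 had a difference above 0, 2 were called (Cldn4 and Cldn23, the latter in overlapping groups and not with the replicate block, adjusted p = 0.0798, or without any of 7 arrays, 0.0582 to 0.109), and the median was 0.46. Without scaling 5 were called. Of 18 integrins and laminins Itgb1 and Itga5, which pair as a fibronectin receptor, rose by 0.71 ± 0.16 and 0.74 ± 0.16 and Itga1, a collagen receptor subunit, fell by 1.02 ± 0.23. Each of these 3 calls ended without some single arrays (4, 3 and 4 arrays, adjusted p of 0.0531 to 0.0698, 0.0507 to 0.0655 and 0.0584 to 0.0705), as did that of Ereg (4 arrays, 0.054 to 0.0616). Sgk1, the kinase that stabilises the epithelial sodium channel, rose by 0.93 ± 0.17, and the water channel Aqp1 fell by 1.33 ± 0.37 in overlapping groups, with its call lost without any of 6 arrays (adjusted p of 0.0796 to 0.1).

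Inflammatory genes had few calls. Of 32 tested genes under NF-kB 2 were called higher and 1 lower, or 9.4% beside 15.8% of all genes. Csf3, the granulocyte colony-stimulating factor, read -3.66, -4.60, -4.06 and -3.65 in 21% O2 and -2.82, -2.15, -1.74 and -0.04 in 85% O2, a rise of 2.30 ± 0.54 (adjusted p = 0.0272) with its highest value in replicate 4. Its call ended without replicate 2, 3 or 4 of 21% O2 or replicate 3 of 85% O2 (0.0501 to 0.0744), and it differed by -0.88 between the NaHS slides. Csf1, the macrophage growth factor, rose by 0.77 ± 0.11, with 85% O2 values between 6.37 and 6.42. Il6, Cxcl1 and Ccl2, an interleukin and chemokines of injured lung, differed by 0.25 ± 0.30, 0.29 ± 0.54 and -0.24 ± 0.61. Of 30 interferon-stimulated genes 4 were called higher (Irf9, Ifit1, Mx2 and Rsad2), and with the replicate block 1 of 30 was called and none of these 4 (adjusted p of 0.0587, 0.0571, 0.0664 and 0.0512). Each also lost its call without some single arrays, 5 to 7 in number, with an adjusted p of 0.0501 to 0.0921. Without scaling 8 were called higher. The list ranged from -0.48 to 2.42 between the NaHS slides, with Mx2 at 2.42.

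Of 24 immediate early genes Fosl1 and Dusp1 rose by 1.08 ± 0.18 and 1.06 ± 0.24, Ier5 by 0.71 ± 0.17, and Jun fell by 0.68 ± 0.16, the last not with the block (adjusted p = 0.0571). The calls of Dusp1, Ier5 and Jun ended without any of 3, 3 and 5 arrays (0.0575 to 0.0657, 0.0598 to 0.0782 and 0.0531 to 0.0811). Fosl1 and Jun encode partners in the AP-1 factor and Dusp1 a phosphatase of MAP kinases. Of 43 matrix and TGF-beta genes 1 was called, Smad3, a mediator of TGF-beta, at 0.42 ± 0.11, and not with the block (0.0795) or without any of the 8 arrays (0.0562 to 0.114), while 10 were called higher without scaling. The keratin list had 1 call of 18, Krt6b at -1.31 ± 0.26, the cytochrome P450 list 1 of 13, Cyp2j6 at 1.21 ± 0.15, and the cornified envelope list 2 of 16, Lor at 0.79 ± 0.16 (0.0547 without 1 of the arrays) and Crct1 at 1.92 ± 0.40, the last not with the block (adjusted p = 0.0563). These shares stand beside 15.8% of all genes called.

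**Figure D5:**
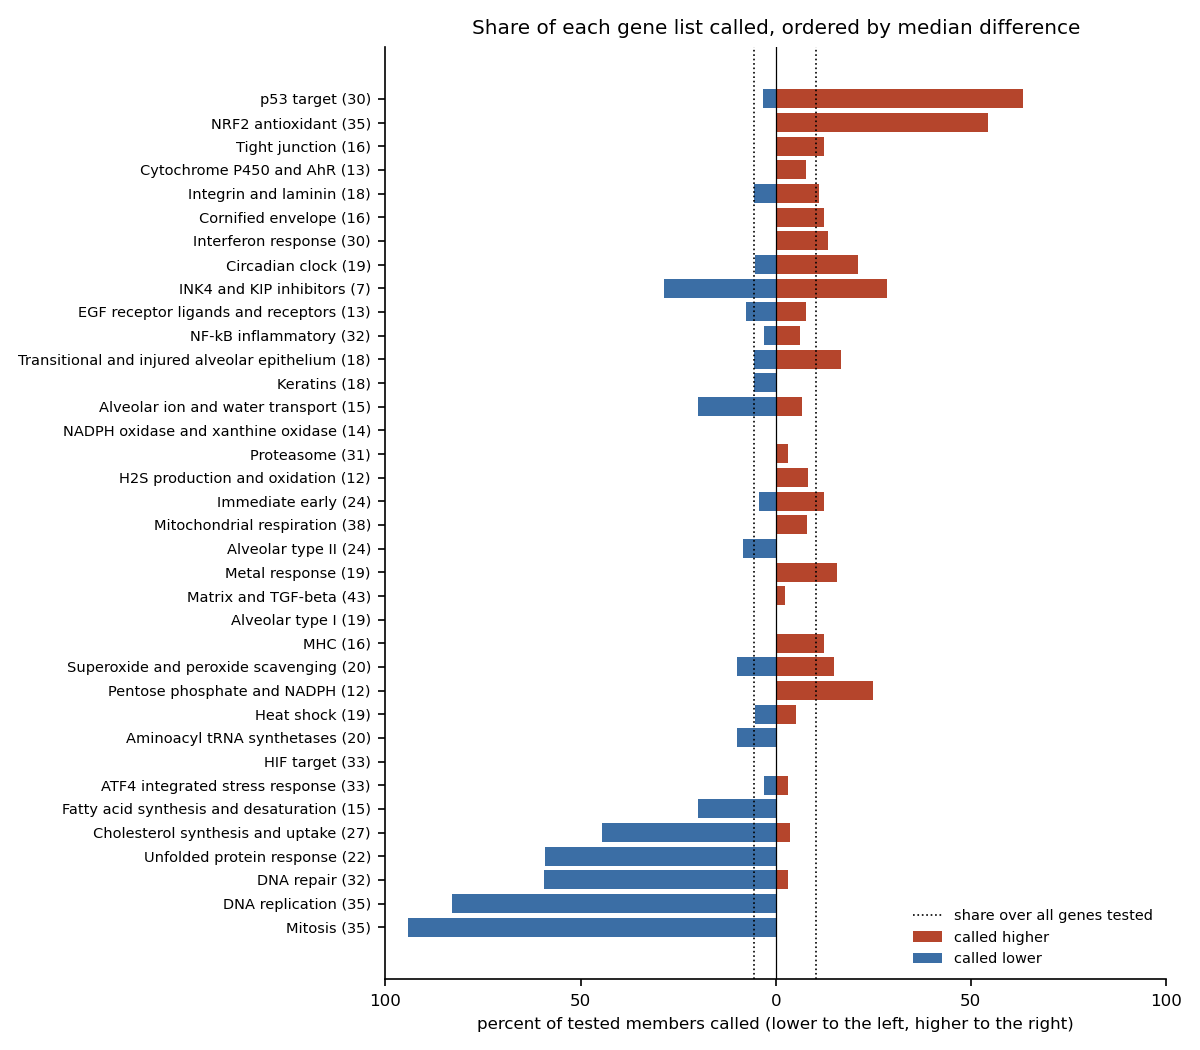
Percent of the tested members of each of 36 gene lists (rows, number tested in brackets, ordered by median difference) called lower (blue, to the left) and higher (red, to the right) in 85% O2, with dotted lines at the shares over all genes tested, 5.57% lower and 10.2% higher. Mitosis and replication reach furthest to the left and the p53 and NRF2 lists furthest to the right, while many lists stay near or under the dotted lines.

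The largest falls among named genes were H1f5, a linker histone, and H2bc18, a core histone. H1f5 read 3.60, 2.84, 3.55 and 2.45 in 21% O2 and -0.43, -0.71, -0.62 and -0.93 in 85% O2, a fall of 3.78 ± 0.27 (adjusted p = 0.00145). H2bc18 fell by 3.40 ± 0.48. Histone genes have near-identical copies, so the signal of a probe may include relatives. The other large falls were mostly of mitosis: Aspm, a protein of the spindle pole, fell by 3.02 ± 0.22, Fbxo5, an inhibitor of the anaphase-promoting complex, by 2.83 ± 0.26, Sgo2a, shugoshin, which protects centromeric cohesion, by 2.84 ± 0.29 and Knl1, a kinetochore scaffold, by 2.83 ± 0.33. Tnfsf4, the ligand of OX40, was well above background on all 4 arrays of 21% O2 and on none of 85% O2. Tnfsf4 read -1.88, -5.18, -4.63 and -5.08 in 21% O2, so replicate 1 stood far above the others, and its call ended without any of 5 arrays (adjusted p of 0.0532 to 0.0929), so no fold is given.

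Among the largest rises beside Nqo1 and Gsta3, several genes were near background. For a gene not well above background on any array of a group only a bound on the fold can be given: the mean of the higher group was set against the mean over arrays of the higher of the dim probe's own signal and the lowest signal well above background. H2-M9, a nonclassical MHC gene, was at least 7.82-fold higher in 85% O2, Sprr2g, a small proline-rich protein of cornified cells, at least 6.50-fold and Slc2a9, a urate transporter, at least 3.13-fold. The vomeronasal receptor Vmn2r78 was at least 5.96-fold higher, the keratin Krt33a at least 3.60-fold, Tmem100 at least 4.0-fold and the protease Tmprss11e at least 3.99-fold. In the other direction Cdc7, a kinase that fires replication origins, was at least 2.97-fold lower. Between the NaHS slides Cdc7 differed by 1.58 and Vmn2r78 by 1.12. Over all named genes 26 were above background on every 85% O2 array and no 21% O2 array, and 35 the reverse.

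Rises measured on both sides included Prl2c5, a proliferin, which read -4.56, -4.20, -4.89 and -4.82 in 21% O2 and -1.34, -0.96, -1.28 and -2.52 in 85% O2, a rise of 3.1 ± 0.33 or 8.55-fold. Zfp750, a factor of epidermal differentiation, rose by 2.76 ± 0.42. Lce1g and Lce1i, late cornified envelope genes, rose by 2.98 ± 0.40 and 2.91 ± 0.46, with Lce1g above background on 3 of the 4 arrays of 21% O2. Svop, a vesicle protein, rose by 2.87 ± 0.24, but differed by 1.18 between the slides of the NaHS experiment, where Prl2c5 differed by 0.70 and Zfp750 by -0.64. Among the third of genes with the lowest signal 1265 were called higher and 439 lower, with a median of 0.15, and among the third with the highest signal 926 and 880, with a median of 0.00.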

How the data were processed

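Total RNA of the 8 samples was labelled with Cy3 from 0.1 µg and hybridised to 1-colour Agilent arrays, per the labels. Agilent Feature Extraction 10.7.3.1 wrote the intensity column used here, per the file headers, as a signal with background subtracted and no normalization between arrays, and the background and outlier flags, read here as other columns, come from the same program. The value table deposited by the authors holds log2 values of unstated scaling and served as an alternative. The submitters' processing notes name the same program and version.

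Outlier spots were left out, spots of a probe averaged as log2, and the 75th percentile of each array subtracted. The brightest probe stood for a gene. Probes were named through RefSeq accessions (27522 probes), symbols (3423), older symbols (493) or the array design (1130). Probe positions are mm9, per the file headers. Groups were compared with limma 3.58.1 in R 4.3.3 (lmFit, eBayes), two-sided, with a mean per oxygen level. SE is that of the fit. On simulated data with 50 genes at each log2 change, 39, 14, 20 and 36 were called at -2, -1, 1 and 2. No other gene was changed there, against 5471 called in the data. The adjustment of p was therefore stricter, and these counts do not give the share of true changes found here.

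Residuals of samples with the same replicate number correlated at 0.213, 0.185, 0.257 and 0.183 for numbers 1 to 4. The highest correlations with another number were 0.012, 0.164, 0.012 and 0.077. The replicate number is also the position of the array on its slide, so pairing of samples and of positions cannot be told apart. The numbers were taken as possible pairs, and the fit with the replicate number as a block was run as an alternative. Other alternatives were the scaling, the background correction, the filter on dim probes, the averaging of probes, a fit over all 24 arrays, a trended prior, a limit on slide differences and each array left out.

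The 47 gene lists hold 900 genes, of which 858 were tested. The lists and the comparison were chosen with earlier results of these data known. Genes named are the 12 largest rises and 12 largest falls, the 8 smallest p-values of each list, a set of redox, p53, cycle and alveolar genes, those with the 5 largest bounds in each direction and those of the 10 highest signals. Not every gene the rule admits is described. Motif matches were counted for a gene if any of its promoters in the table held the letters.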

Additional observations from a re-analysis of the deposited data

Results flagged for a closer look

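In groups of 4 arrays, a value was picked out when its gap to the nearest other value, as a share of the range of the group, passed Dixon's 95% critical value. Chance does this for about 1 group in 20, and 23 of 400 groups of values were picked out, so single cases carry little weight. No explanation was tested.

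Replicate 4 of 21% O2 stood apart in 7 genes. It was low in Mcm5 (1.95, others 2.80 to 2.88), Cenpe (2.55, others 3.32 to 3.40), Nqo1 (-1.39, others -0.77 to -0.76), Nnt (2.63, others 2.74 to 2.76), Prdx4 (4.04, others 4.27 to 4.32) and Sod1 (5.97, others 6.25 to 6.28), and high in Cdkn1a (4.28, others 3.78 to 3.86). Replicate 3 of 21% O2 was high in Ccl2 (6.77, others 4.12 to 4.55), Gclm (0.95, others 0.16 to 0.23) and Gsta4 (0.26, others -2.16 to -1.95), and low in Vegfa (3.97, others 5.45 to 5.67) and Nfil3 (3.40, others 3.98 to 4.05).

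In the other replicates of 21% O2, Akr1b8 was high in replicate 1 (5.35, others 5.05 to 5.09), Tnfsf4 was high in replicate 1 (-1.88, others -5.18 to -4.63) and Srebf1 low in replicate 2 (-1.70, others -1.36 to -1.34).

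In 85% O2, Nqo1 was low in replicate 4 (1.89, others 2.63 to 2.76), and replicate 1 was low in Krt8 (7.29, others 7.68 to 7.71), Svop (-2.40, others -1.97 to -1.95) and Cldn23 (-1.93, others -1.55 to -1.49). Smc2 was low in replicate 2 (0.55, others 1.10 to 1.17). Replicate 3 was high in H2-M9 (-2.65, others -3.27 to -3.18) and Zmat3 (4.35, others 4.21 to 4.23) and low in H2ac6 (-3.43, others -3.06 to -2.99).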

How the results depend on the processing

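All 158 named genes with a call kept their direction under every alternative run. With the median of each array subtracted 1962 genes were called higher and 3357 lower (900 and 1240 at least 2-fold), and without scaling 8112 and 910 (3533 and 433 at least 2-fold, 9022 in all). Normexp with quantile normalization gave 3268 lower, and 281 higher and 427 lower at least 2-fold. At least 2-fold higher were 979 genes with quantile normalization, 974 with the deposited table and 648 among genes that differed by under 0.5 between the NaHS slides. The NaHS slides differed at 26741 genes with the median. Without scaling 12 repair and 4 cholesterol genes were called lower, and without the filter on dim probes 7 cholesterol genes. With each array left out the calls ran from 2071 to 6778, higher from 1284 to 4417, lower from 787 to 2510, and at least 2-fold from 711 to 2228 higher and 501 to 1292 lower. The lists then gave 12 to 19 p53, 11 to 18 repair, 7 to 13 unfolded protein and 4 to 15 cholesterol genes. The cause of these shifts was not tested. The replicate block gave 3532 higher and 1766 lower, and ended 19 and made 3 of the calls of 198 named genes. The blocked values stand beside those genes, and the pairing changed no other call of a named gene. Besides leaving out an array, 121 of 158 called genes kept their call and direction under every other alternative. Small medians change sign with the scaling: kinesins -0.15 and 0.11, ribosomal proteins -0.10 and 0.16, aldehyde dehydrogenases -0.01 and 0.25 without scaling. No probe of these 8 arrays was saturated, and signal near background limits the folds of dim probes to bounds.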

Other observations

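Gene families outside the lists were looked at after the values of their members were seen, so they are descriptions. Their counts stand beside 10.2% of all genes called higher and 5.57% lower. Of 51 tested histone genes 25 were called lower (49%) and 7 higher (13.7%), with a median of -0.61 beside 0.07 over all genes. By class, 10 of 16 H2A genes, 5 of 8 H3 genes and 6 of 8 H4 genes fell. In H2B 1 of 10 fell and 2 rose, and in H1 3 of 9 fell and 1 rose. H1f1 and H1f4, linker histones like H1f5, fell by 2.66 and 1.61, while H1f2, another linker histone, rose by 1.66, and H2ac6 and H2ac18, core histones, rose by 1.66 and 1.29. Near-identical copies make single histone genes uncertain.

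Proteins that build the centromere had 14 of 20 Cenp genes lower and 1 higher, with a median of -1.35. Cenpe and Cenpi fell by 2.07 and 1.99, and Cenpt rose by 0.65. Of 10 Mcm genes 8 fell, among them 6 that encode the helicase (Mcm2 to Mcm7 by 0.66 to 1.50), and Mcm9, which acts in repair, rose by 0.57. The calls of Mcm7 and Mcm9 ended without any of 2 arrays (adjusted p = 0.052 and 0.0613) and of 5 arrays (0.0513 to 0.0723). Of 36 kinesins 10 fell, or 27.8% beside 5.57% of all genes. Kif11, Kif2c and Kif15, motors of the spindle or chromosomes, fell most, by 2.83, 2.71 and 2.46. Another 4 rose (11.1%, near the 10.2% of all genes), among them Kif1a and Kif5a, motors of axonal transport, by 1.68 and 1.51. Of 8 Smc genes 5 fell, with the condensin subunits Smc4 and Smc2 at 1.54 and 1.34.

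Among detoxifying families 6 of 12 aldo-keto reductases, 4 of 21 glutathione transferases and 4 of 21 aldehyde dehydrogenases were called, all higher. Those are 50%, 19% and 19% of each family beside 10.2% of all genes called higher, with medians of 0.46, 0.23 and -0.01. Akr1c19, Akr1c12 and Akr1c13 rose by 1.75, 1.67 and 1.34, and Aldh1a3 by 1.52. Gsta4 rose by 2.41 in groups that overlapped in replicate 3 of 21% O2 and replicate 4 of 85% O2, and its call ended without replicate 2 or 4 of 21% O2 or replicate 1 or 3 of 85% O2 (adjusted p of 0.0577 to 0.0707). Of 15 late cornified envelope genes 8 rose (53.3%), Lce1h by 2.57 and Lce1f by 1.95, and 2 fell (13.3%). The median of these genes was 0.57, or 0.16 with normexp and quantile normalization. Their sequences are alike, so probes may share signal. Of 20 serpins of clade B 6 rose and none fell, with a median of 0.45, and with the replicate block 9 rose and 2 fell. Of 9 ligands of the TNF superfamily 5 fell (55.6%, beside 5.57% of all genes called lower) and none rose. The median was -1.21, or -0.58 with normexp and quantile normalization. Those called lower were Tnfsf4, Tnfsf8, Tnfsf18, Tnfsf15 and Tnfsf11, the last of which lost its call with the replicate block (adjusted p = 0.0653). Without some single arrays the calls of Tnfsf4, Tnfsf15 and Tnfsf11 ended too (5, 2 and 6 arrays, 0.0532 to 0.0929, 0.0551 and 0.0587, and 0.0511 to 0.0953).

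Of 111 ribosomal protein genes 1 rose and 2 fell, with a median of -0.10 that was 0.02 with quantile normalization. Of 516 olfactory receptor genes, which the lung is not known to use broadly, 57 were called higher (11%) and 17 lower (3.29%), with a median of 0.20, and 71 and 17 with the replicate block. Over all genes 10.2% were called higher and 5.57% lower, and in the third of genes with the lowest signal 11% and 3.8%, with a median of 0.15.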
